A study of Homo sapiens with 6 samples.

Results

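The genes described here make cholesterol and fatty acids or control that synthesis. They were 34 genes, chosen by name, of the 26025 genes listed in the deposited table. They comprised 5 SREBP regulators, 6 mevalonate enzymes, 11 squalene and sterol enzymes, 1 sterol transfer protein, 8 fatty acid enzymes and 3 LXR efflux genes. Of the 34 genes, 33 had a mean of at least 10 normalized counts over the 6 libraries and were tested, and ABCG1 did not reach this minimum.

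Cells build cholesterol from acetyl-CoA through mevalonate, farnesyl diphosphate, squalene and lanosterol, and they build fatty acids from acetyl-CoA and malonyl-CoA. The SREBP transcription factors turn on the genes of both routes when membrane sterol is low. SCAP then escorts them out of the endoplasmic reticulum, whereas INSIG proteins hold them there when sterol is plentiful. LXR nuclear receptors respond to oxidized sterols and turn on genes that export cholesterol or limit its uptake. Non-small cell lung cancer cells, like other proliferating cells, use both routes to make membrane.

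The cells were NCI-H1299, a cell line established from a human non-small cell lung tumor, sequenced as 3 Ctrl libraries and as 3 libraries of cells given 10 µM norepinephrine (NE), the stress neurotransmitter that activates adrenergic receptors, for 48 h. Both groups were held in RPMI-1640 with a lowered serum content during treatment. The medium before treatment is given as DMEM, whereas the paper names RPMI-1640 for this line. The paper also describes starvation of cells before drug treatment. The vehicle of the Ctrl cells is called DMSO in one label and PBS in another. No label says that the libraries came from separate cultures, so p-values measure the spread between these libraries, which may be technical.

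Each deposited value was a read count divided by the size factor of its library and is called a normalized count here. Between 17373654 and 17979206 reads fell on genes in the Ctrl libraries, and between 16852751 and 17325039 in the NE libraries. Ctrl replicate 3 stood apart, where 7305 genes had 0 reads, compared with 4829 and 4833 genes for replicates 1 and 2 and 3954 to 4416 for the NE libraries. Of 5 marker genes listed for this line, KRT8 and KRT18, which are epithelial keratins, and VIM, a mesenchymal marker, were abundant. KRT19 and EPCAM, also epithelial, did not exceed 9.33 normalized counts in any library. The summed level of these 5 genes was 99425 to 105906 in Ctrl and 57213 to 72372 in NE libraries. The abundant markers were lower with NE, with log2 fold changes of -1.06 for KRT8, -1.62 for KRT18 and -0.38 for VIM (limma adjusted p = 0.000604, 8.24e-05 and 0.0462). Of 6 markers of other cell types, PTPRC, ADIPOQ and SFTPC were not listed, and ALB, PECAM1 and COL1A1 together had 44.1 to 58.6 normalized counts in Ctrl and 24.2 to 46.4 in NE libraries. Among these COL1A1 was lower with NE by limma (-1.26, adjusted p = 0.0251), PECAM1 did not pass and ALB did not exceed 0.988. The part of these shifts in the results below was not tested. Across the 14955 tested genes with a known exon GC content, the log2 fold change and the GC content had a Spearman correlation of -0.64. Genes are not independent replicates, and this correlation is a description. Because of this trend each fold change below was also computed after a smooth curve on GC content was removed from every library, which is called GC correction.

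By limma, 19 of the 33 tested genes were significantly downregulated in NE-treated cells (adjusted p under 0.05 by Benjamini-Hochberg), and 4 were significantly upregulated. The downregulated share was 57.6%, where 25.5% of all 15013 tested genes were lower, and the upregulated share was 12.1%, where 24.6% of all tested genes were higher. With the further criterion of a 2-fold change, 2 genes were downregulated, MVK and EBP, a share of 6.06% against 6.55% of all tested genes. No gene reached a 2-fold increase, where 7.47% of all tested genes did, and the number was 0 by limma, edgeR and DESeq2, also at an unadjusted p under 0.05. The median log2 fold change over the 33 genes was -0.54, beside 0.0097 over all tested genes. Because RNA was taken from whole cultures, fewer cells expressing a gene and less RNA per cell cannot be told apart.

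The 3 NE libraries all lay below the 3 Ctrl libraries for 22 of the 33 genes, and all lay above them for 3. Among all tested genes, 28.9% lay below and 29.7% lay above. The groups overlapped for the remaining 8 genes. Relative to the Ctrl mean, the median over the 33 genes was 0.028, 0.0057 and -0.043 on the log2 scale in the Ctrl libraries. It was -0.49, -0.43 and -0.54 in the NE libraries, so that each NE library was lower than each Ctrl library.

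**Figure D1:**
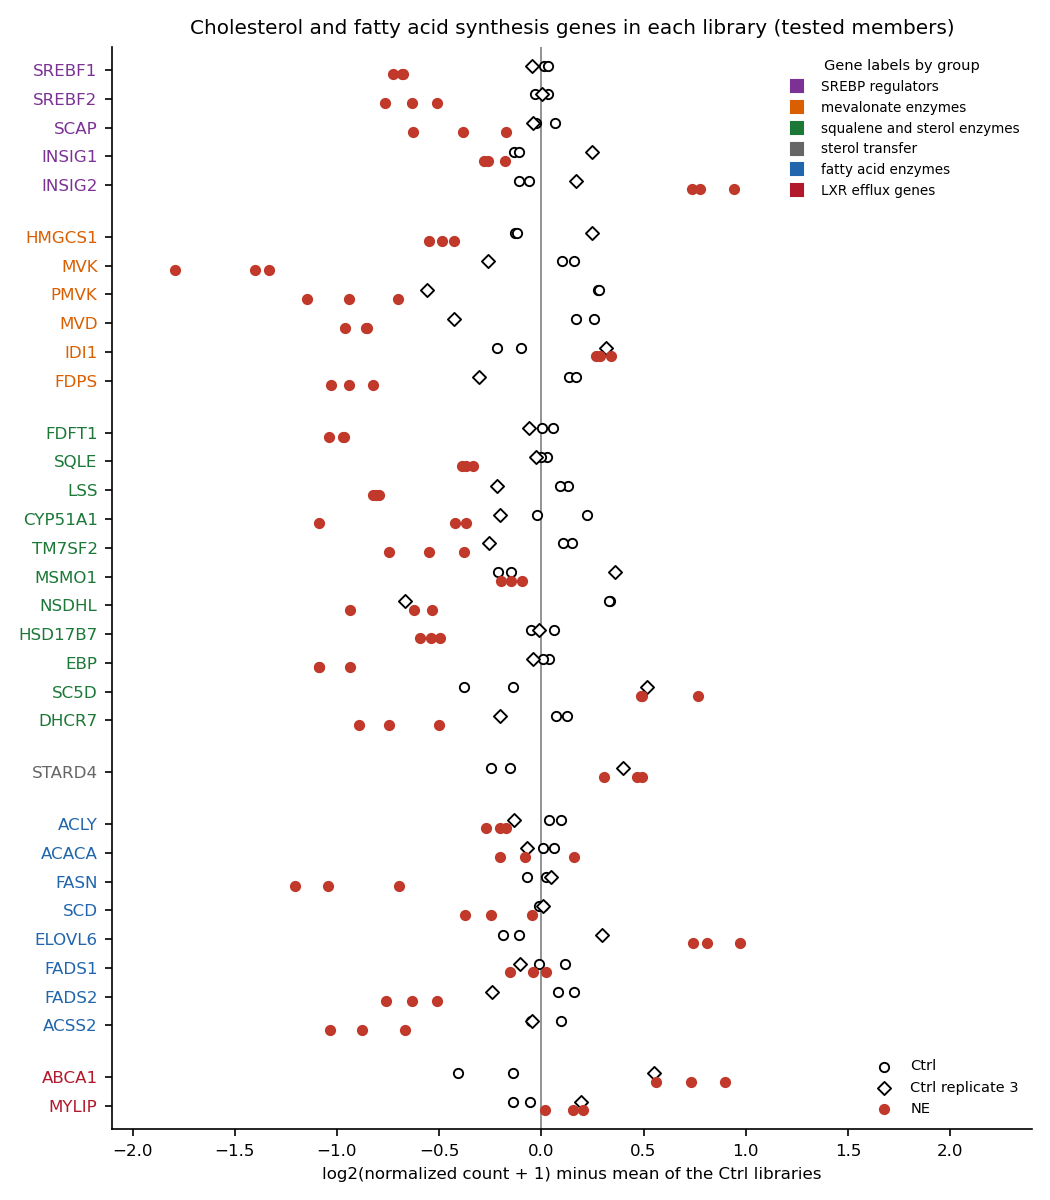
Each row is 1 of the 33 tested genes and each point 1 library, plotted as log2(normalized count + 1) minus the mean of the 3 Ctrl libraries, with open symbols for Ctrl (a diamond for replicate 3) and filled circles for NE. Most mevalonate, squalene and sterol genes have all NE points left of the Ctrl points, and INSIG2, ELOVL6 and ABCA1 have them to the right.

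These counts are also given by GC content. Of the 33 genes, 19 lay above the median exon GC content of the tested genes, 47.5%, and 16 of these were downregulated while the other 3 did not pass. Of all genes above that median, 45.0% were lower and 4.96% higher. The other 14 genes lay at or below the median, where only 6.12% of all genes were lower and 44.3% were higher with NE. Of these 14 genes 3 were downregulated, HMGCS1, SQLE and HSD17B7, and 4 upregulated, INSIG2, SC5D, ELOVL6 and ABCA1. The median log2 fold change of these 14 genes was -0.010, beside 0.45 for all genes on that side.

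After GC correction, 14 of the 33 genes were significantly lower with NE and 1, ELOVL6, was higher. These shares were 42.4% and 3.03%, beside 19.0% and 13.0% of all genes in that fit. Of the 14 genes, 10 were also among the 19 called without the correction. INSIG1, CYP51A1, MSMO1 and STARD4 were lower after correction only, whereas SREBF1, SREBF2, SCAP, PMVK, TM7SF2, NSDHL, DHCR7, FASN and FADS2 no longer passed. The 2-fold criterion was then met by MVK, HMGCS1, CYP51A1 and HSD17B7, 4 genes where 2.66% of all genes were called, and the median over the 33 genes was -0.33. No gene was then 2-fold higher by limma, also at an unadjusted p under 0.05, where 3.43% of all genes were. The part of the GC trend in these results was not tested. Without Ctrl replicate 3, 21 of the 33 genes were lower and 6 higher, where 32.6% and 31.8% of all genes were called. At least 2-fold, 7 were then lower and 1, ABCA1, was higher, where 10.1% and 10.7% of all genes were called.

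**Figure D2:**
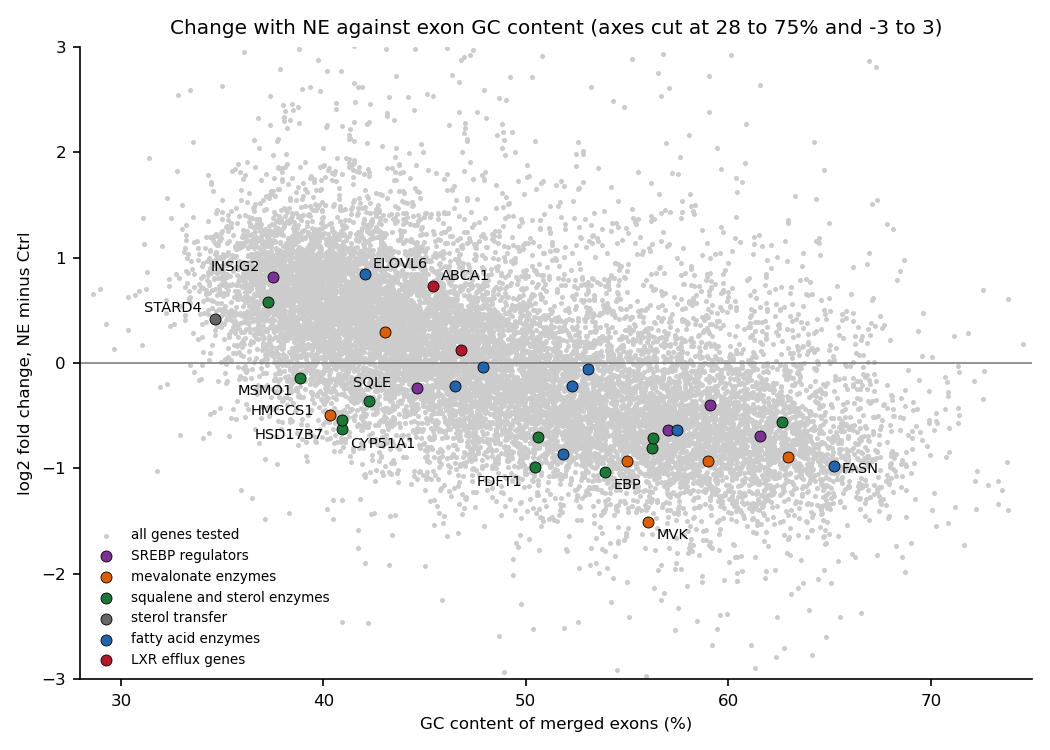
Log2 fold change, NE minus Ctrl, of every tested gene (grey) against the GC content of its merged exons in percent, with the cholesterol and fatty acid genes coloured by group. INSIG2, ELOVL6 and ABCA1 sit among the rising GC-poor genes, whereas MSMO1, HMGCS1, HSD17B7, CYP51A1 and SQLE lie below 0, where most genes of their GC content lie above it.

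Among the regulators, SREBF1, which encodes the SREBP best known for fatty acid synthesis, had 4597, 4654 and 4417 normalized counts in Ctrl and 2842, 2849 and 2757 in NE-treated cells. The 3 NE values lay close together and well below the 3 Ctrl values. By limma the log2 fold change was -0.69 (standard error 0.0894, limma adjusted p = 0.000398). SREBF2, whose product mainly drives cholesterol synthesis, had 5591, 5353 and 5483 normalized counts in Ctrl and 3840, 3536 and 3222 in NE-treated cells, again without overlap. Its log2 fold change was -0.64 (standard error 0.1, limma adjusted p = 0.000975). Per kilobase of exon, the Ctrl libraries had a ratio of SREBF1 to SREBF2 of 0.814 ± 0.0324 and the NE libraries one of 0.783 ± 0.0567 (SD, n = 3), so that the ratio moved by less than the spread between libraries. SREBF1 and SREBF2 are rich in GC, at 61.6% and 57.0%. After GC correction neither passed, with log2 fold changes of -0.095 and -0.15 (limma adjusted p = 0.543 and 0.361).

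The SREBF2 promoter is shown because it was the only one of the 30 promoters examined that held an exact sterol regulatory element. It lies at chr22:41832964-41833011 of GRCh38.p14 on the plus strand, and capitals mark that element followed by an NF-Y box on the other strand:
SREBF2: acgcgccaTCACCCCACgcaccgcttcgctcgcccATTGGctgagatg
The element starts 133 bases before the RefSeq start, and the NF-Y box lies between -106 and -102. SREBPs bind sterol regulatory elements, and NF-Y is a factor that binds beside them at many sterol genes. Only a fixed letter string was searched, so that sterol regulatory elements with other letters would be missed.

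SCAP, the escort protein, had 2148, 2008 and 1991 normalized counts in Ctrl and 1816, 1568 and 1324 in NE-treated cells. The NE values were all lower but spread widely. The log2 fold change of -0.40 (standard error 0.128, limma adjusted p = 0.0287) depended on single libraries. It no longer passed without Ctrl replicate 1 (-0.36), Ctrl replicate 2 (-0.41), NE replicate 2 (-0.40) or NE replicate 3 (-0.28), where limma adjusted p lay between 0.0682 and 0.109. After GC correction it was 0.15 (limma adjusted p = 0.44).

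Of the INSIG genes, whose products retain SCAP, INSIG2 passed the test and INSIG1 did not. INSIG1 had 3563, 3619 and 4637 normalized counts in Ctrl and 3459, 3261 and 3218 in NE-treated cells, with all NE values lower and Ctrl replicate 3 the highest. The log2 fold change of -0.24 (95% interval -0.51 to 0.033) did not pass (limma adjusted p = 0.127), and after GC correction it was -0.51 (limma adjusted p = 0.00499). INSIG2 had 251.3, 260.3 and 304.8 normalized counts in Ctrl and 452.6, 464.9 and 521.8 in NE-treated cells, so that every NE library lay above every Ctrl library. It was significantly upregulated, with a log2 fold change of 0.82 (standard error 0.136, limma adjusted p = 0.00125). INSIG2 is poor in GC, at 37.5%, and its corrected log2 fold change was 0.14 (limma adjusted p = 0.413). Per kilobase of exon, INSIG1 was 15.6 ± 0.749 times as high as INSIG2 in Ctrl and 7.51 ± 0.8 times in NE libraries (SD, n = 3). The Ctrl ratios lay between 15.0 and 16.5 and the NE ratios between 6.67 and 8.27, without overlap, where 0.1 is the smallest p an exact permutation test allows. The part of GC content in this ratio was not tested.

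Of the 6 mevalonate enzymes, 5 were significantly downregulated, and the sixth, IDI1, did not pass. The median log2 fold change was -0.91, and it was -0.46 after GC correction, with 4 genes lower. The share lower was 83.3%, beside 25.5% of all tested genes, and 66.7% after GC correction, beside 19.0%. HMGCS1 forms HMG-CoA, an early intermediate of the pathway. It fell by 0.49 on the log2 scale (limma adjusted p = 0.0103). HMGCS1 is poor in GC, at 40.3%, and after GC correction the log2 fold change was -1.04 (limma adjusted p = 3.23e-05).

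The largest fall of the 33 genes by limma was that of MVK, which encodes mevalonate kinase, and it was also below -1 after GC correction. MVK had 536.2, 557.9 and 416.5 normalized counts in Ctrl and 188.7, 197.6 and 143.5 in NE-treated cells. The highest NE value was under the lowest Ctrl value, that of replicate 3. On the log2 scale the change was -1.51 (standard error 0.177, limma adjusted p = 0.000269), and the NE mean was 0.351 of the Ctrl mean. It met the 2-fold criterion with each of the 6 libraries left out, at -1.64 to -1.37, and was -1.06 after GC correction (limma adjusted p = 0.000648).

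PMVK, the next kinase of the pathway, had 421.0, 423.1 and 235.2 normalized counts in Ctrl and 156.1, 180.2 and 212.9 in NE-treated cells. Ctrl replicate 3 lay much nearer to the NE values than the other Ctrl libraries did. The log2 fold change was -0.93 (standard error 0.239, limma adjusted p = 0.0103). It was -1.21 without Ctrl replicate 3, and it did not pass without NE replicate 1 (-0.82, limma adjusted p = 0.0522) or after GC correction (-0.39, limma adjusted p = 0.104). Without NE replicate 3 it was -1.05 and met the 2-fold criterion.

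MVD, the decarboxylase that makes isopentenyl diphosphate, had 3309, 3117 and 2063 normalized counts in Ctrl and 1529, 1534 and 1426 in NE-treated cells. The groups did not overlap, and Ctrl replicate 3 was again the lowest Ctrl library. As a log2 fold change the difference was -0.89 (standard error 0.169, limma adjusted p = 0.00242), -1.10 without Ctrl replicate 3 and -0.27 after GC correction (limma adjusted p = 0.0471). FDPS, the synthase of farnesyl diphosphate, had 4625, 4737 and 3408 normalized counts in Ctrl and 2191, 2381 and 2065 in NE-treated cells, again with replicate 3 the lowest Ctrl library. Its log2 fold change was -0.93 (standard error 0.139, limma adjusted p = 0.000771), -1.08 without Ctrl replicate 3 and -0.52 after GC correction (limma adjusted p = 0.00219). IDI1, the isomerase between these enzymes, had a log2 fold change of 0.30 (95% interval -0.018 to 0.62, limma adjusted p = 0.104). IDI1 reached 2440 normalized counts in Ctrl replicate 3 and 1684 and 1826 in the other Ctrl libraries, and without replicate 3 the log2 fold change was 0.46 (limma adjusted p = 0.000252).

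The promoters of HMGCS1, MVK and MVD are shown for their repeated NF-Y boxes. They lie at chr5:43313500-43313575 on the minus strand, chr12:109573576-109573760 on the plus strand and chr16:88663164-88663258 on the minus strand of GRCh38.p14. Capitals mark the NF-Y box CCAAT, or ATTGG where it is on the other strand:
HMGCS1: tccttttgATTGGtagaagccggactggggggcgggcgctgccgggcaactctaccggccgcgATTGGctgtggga
MVK: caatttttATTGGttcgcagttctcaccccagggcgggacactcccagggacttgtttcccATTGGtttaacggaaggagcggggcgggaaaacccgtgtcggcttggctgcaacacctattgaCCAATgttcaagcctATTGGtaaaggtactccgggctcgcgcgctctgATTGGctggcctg
MVD: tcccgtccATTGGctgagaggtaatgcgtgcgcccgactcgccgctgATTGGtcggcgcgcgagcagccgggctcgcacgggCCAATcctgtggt
MVK held 5 boxes, MVD and FDPS 3 each and HMGCS1 2, whereas no box was found in the windows of PMVK and IDI1.

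Of the 11 squalene and sterol enzymes, 8 were significantly downregulated and SC5D was upregulated, while CYP51A1 and MSMO1 did not pass. The median log2 fold change was -0.63, and it was -0.68 after GC correction, with 7 genes lower. The share lower was 72.7%, beside 25.5% of all tested genes, and 63.6% after GC correction, beside 19.0%. FDFT1, squalene synthase, commits farnesyl diphosphate to sterols. It had 7310, 7600 and 7012 normalized counts in Ctrl and 3745, 3722 and 3558 in NE-treated cells, so that both groups were tight and far apart. This was a log2 fold change of -0.99 (standard error 0.0904, limma adjusted p = 0.000102), just short of 2-fold. Leaving out Ctrl replicate 3, NE replicate 1 or NE replicate 2 took it past the 2-fold criterion, at most to -1.02. After GC correction it was -0.83 (limma adjusted p = 9.66e-05).

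LSS, lanosterol synthase, closes the sterol rings and had 5092, 4958 and 4004 normalized counts in Ctrl and 2686, 2660 and 2632 in NE-treated cells. The NE values were close together and below every Ctrl value. The log2 fold change was -0.81 (standard error 0.114, limma adjusted p = 0.000585), and it was -0.35 after GC correction (limma adjusted p = 0.00746). SQLE, squalene epoxidase, a rate-limiting enzyme of the pathway, fell by 0.36 on the log2 scale (limma adjusted p = 0.00807). It did not pass under quantile normalization (-0.19, limma adjusted p = 0.109). SQLE is poor in GC, at 42.3%, and after GC correction the log2 fold change was -0.80 (limma adjusted p = 0.0002).

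EBP, the sterol isomerase, was the second gene past the 2-fold criterion. EBP had 1228, 1205 and 1163 normalized counts in Ctrl and 564.2, 625.7 and 562.9 in NE-treated cells, with a wide gap between the groups. On the log2 scale the change was -1.04 (standard error 0.107, limma adjusted p = 0.000165), at -1.09 to -1.01 with each library left out, and -0.68 after GC correction (limma adjusted p = 0.000957). DHCR7, the reductase of the last step to cholesterol, had 2851, 2961 and 2359 normalized counts in Ctrl and 1914, 1617 and 1458 in NE-treated cells, without overlap. The change on the log2 scale was -0.71 (standard error 0.135, limma adjusted p = 0.00239), and after GC correction it was -0.26 (limma adjusted p = 0.114).

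Among the enzymes that take methyl groups off lanosterol or reduce its ring, HSD17B7, TM7SF2 and NSDHL fell, and CYP51A1 and MSMO1 did not pass. HSD17B7, a keto-sterol reductase, fell by 0.54 on the log2 scale (limma adjusted p = 0.00463), and its log2 fold change was -1.06 after GC correction. TM7SF2, a sterol reductase, fell by 0.56 (limma adjusted p = 0.0134) and did not pass without Ctrl replicate 1 (-0.48), Ctrl replicate 2 (-0.50) or NE replicate 3 (-0.46), nor after GC correction, at 0.059. NSDHL, a sterol dehydrogenase, had a log2 fold change of -0.70 (limma adjusted p = 0.0451) and rested on its Ctrl libraries. It had 1199 and 1195 normalized counts in Ctrl replicates 1 and 2, 598.7 in replicate 3, and 496.1, 616.0 and 655.2 in NE-treated cells. Replicate 3 thus fell among the NE libraries. Without it the log2 fold change was -1.03 (limma adjusted p = 6.66e-06), whereas leaving out any other library gave -0.78 to -0.53 and ended the call.

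CYP51A1, the lanosterol demethylase, had a log2 fold change of -0.63 (limma adjusted p = 0.0536) at the low level of 81.2 to 123.9 mean normalized counts. It was -0.73 without Ctrl replicate 3 (limma adjusted p = 0.0169) and -1.15 after GC correction (limma adjusted p = 0.0084). MSMO1, the methylsterol oxidase, had a log2 fold change of -0.15 (95% interval -0.49 to 0.20, limma adjusted p = 0.45) and 0.035 without Ctrl replicate 3. After GC correction it was -0.77 (limma adjusted p = 0.000435). SC5D, the desaturase before DHCR7, was upregulated by limma with a log2 fold change of 0.58 (adjusted p = 0.0475), but did not pass by edgeR (0.53, adjusted p = 0.0674). Its Ctrl values were 327.8, 387.8 and 610.5 normalized counts and its NE values 727.3, 598.6 and 601.3, so that Ctrl replicate 3 lay within the NE range. The log2 fold change was 0.84 without that library (limma adjusted p = 5.8e-05), and leaving out any other gave 0.39 to 0.63 and ended the call. After GC correction it was -0.10 (limma adjusted p = 0.599).

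The promoters of EBP, which passed the 2-fold criterion, and of MSMO1, which did not pass the test, both hold several NF-Y boxes. They lie at chrX:48521609-48521790 and chr4:165327476-165327647 of GRCh38.p14, both on the plus strand, with the boxes of either strand in capitals:
EBP: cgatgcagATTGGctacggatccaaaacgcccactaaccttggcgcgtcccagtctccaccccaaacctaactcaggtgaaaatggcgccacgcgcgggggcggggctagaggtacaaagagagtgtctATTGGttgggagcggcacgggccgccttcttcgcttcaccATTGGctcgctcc
MSMO1: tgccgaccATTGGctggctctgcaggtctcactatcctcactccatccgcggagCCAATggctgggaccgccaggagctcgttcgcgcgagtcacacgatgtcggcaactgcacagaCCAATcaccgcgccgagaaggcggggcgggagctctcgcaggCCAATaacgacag
EBP held 3 boxes and MSMO1 held 4.

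STARD4, which carries cholesterol between membranes, had a log2 fold change of 0.42 (limma adjusted p = 0.0622). Ctrl replicate 3, at 1463 normalized counts, lay within the NE range of 1370 to 1557, while the other Ctrl libraries had 933.1 and 995.5. Without replicate 3 the log2 fold change was 0.62 (limma adjusted p = 5.62e-05). STARD4 had the lowest GC content of the members, 34.6%, and after GC correction its sign turned, to -0.33 (limma adjusted p = 0.0249).

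Of the 8 fatty acid enzymes, FASN, FADS2 and ACSS2 were significantly downregulated and ELOVL6 upregulated, while ACLY, ACACA, SCD and FADS1 did not pass. The median log2 fold change was -0.22, and it was -0.096 after GC correction, with ACSS2 lower and ELOVL6 higher. The shares lower and higher were 37.5% and 12.5%, beside 25.5% and 24.6% of all tested genes. After GC correction both shares were 12.5%, where 19.0% of all genes were lower and 13.0% higher. FASN, the synthase that builds palmitate, had 20163, 18873 and 20494 normalized counts in Ctrl and 12248, 9630 and 8604 in NE-treated cells. No NE value reached the Ctrl range, although the NE values were spread. This was a log2 fold change of -0.98 (standard error 0.133, limma adjusted p = 0.000495), and it passed 2-fold without Ctrl replicate 2 (-1.02) or NE replicate 1 (-1.12). FASN had the highest GC content of the members, 65.2%, and after GC correction the log2 fold change was -0.34 (limma adjusted p = 0.179).

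ACSS2, which makes acetyl-CoA from acetate, had 2060, 2277 and 2061 normalized counts in Ctrl and 1340, 1158 and 1038 in NE-treated cells, without overlap. By limma the log2 fold change was -0.86 (standard error 0.121, limma adjusted p = 0.00058), and after GC correction it was -0.61 (limma adjusted p = 0.00354). ELOVL6, which lengthens palmitate, moved the other way. It had 903.8, 955.1 and 1264 normalized counts in Ctrl and 2020, 1803 and 1723 in NE-treated cells, all above Ctrl. The log2 fold change was 0.84 (standard error 0.144, limma adjusted p = 0.00145), and ELOVL6 was the only gene of the 33 that was also higher after GC correction, at 0.39 (limma adjusted p = 0.0174).

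Neither the steps before palmitate, ACLY and ACACA, nor the desaturase SCD passed the test. ACLY, which makes acetyl-CoA from citrate, had a log2 fold change of -0.22 (95% interval -0.44 to 0.0066, limma adjusted p = 0.0961), and it passed without Ctrl replicate 3 (-0.28, limma adjusted p = 0.00568). ACACA, which makes malonyl-CoA, had a log2 fold change of -0.040 (95% interval -0.30 to 0.22, limma adjusted p = 0.793). SCD, which puts the double bond into stearate, had 73118, 74001 and 74014 normalized counts in Ctrl and 71307, 62132 and 56929 in NE-treated cells. All 3 NE values were lower, but the log2 fold change of -0.22 did not pass (95% interval -0.47 to 0.027, limma adjusted p = 0.122). SCD passed without NE replicate 1 (-0.31, limma adjusted p = 0.0302), after GC and length correction (-0.35, limma adjusted p = 0.0349) and after GC correction without Ctrl replicate 3 (-0.33, limma adjusted p = 0.0393).

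FADS1 and FADS2 encode the desaturases of long polyunsaturated fatty acids and overlap on opposite strands of chromosome 11. FADS2 fell by 0.63 on the log2 scale (limma adjusted p = 0.00671), and its log2 fold change after GC correction was -0.13 (limma adjusted p = 0.419). FADS1 had a log2 fold change of -0.058 (95% interval -0.30 to 0.18, limma adjusted p = 0.675). Per kilobase of exon, FADS1 was 3.74 ± 0.32 times as high as FADS2 in Ctrl and 5.57 ± 0.154 times in NE libraries (SD, n = 3), and the ratio lay between 3.50 and 4.10 in Ctrl and between 5.39 and 5.68 in NE libraries. The part of GC content and of shared exons in this ratio was not tested. The FADS1 promoter was the only one of the 30 examined with a whole cAMP response element, the string bound by CREB, a share of 3.33% beside 3.31% of the windows of tested genes. All 24 bases of the stretch shown lie within annotated exons of protein-coding genes. The stretch is at chr11:61817050-61817073 of GRCh38.p14 on the minus strand, with the element in capitals:
FADS1: tgcccgccTGACGTCAggaagtcg

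**Figure D3:**
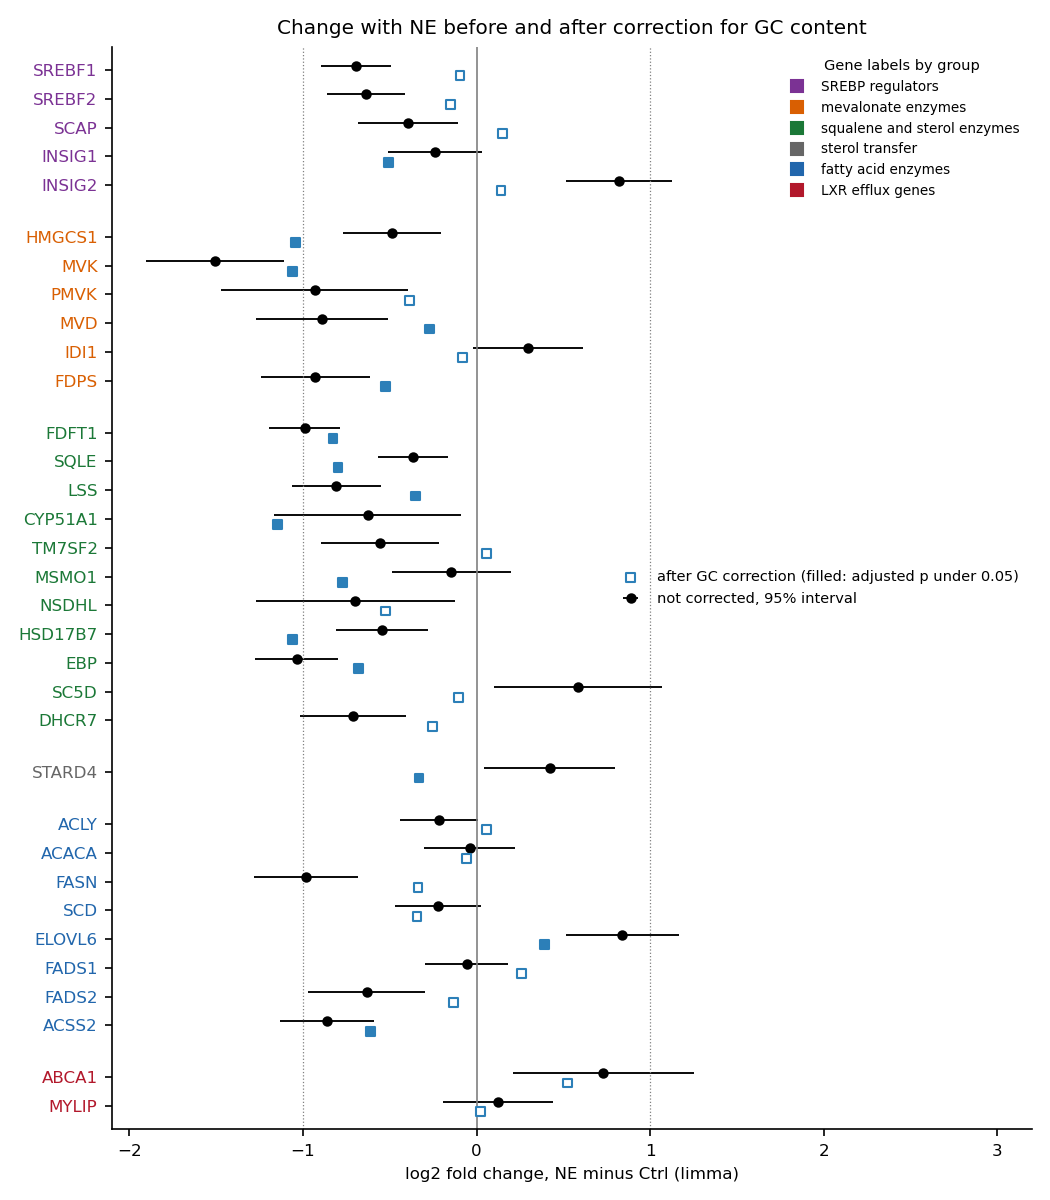
Log2 fold change, NE minus Ctrl, of each tested gene by limma with its 95% interval (black circles) and after GC correction (squares, filled where the adjusted p was under 0.05). HMGCS1, SQLE, CYP51A1, MSMO1 and HSD17B7 lie further to the left after correction, whereas SREBF1, SREBF2, FASN and DHCR7 move towards 0.

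The LXR efflux genes were measured at low or moderate levels. ABCA1, the exporter that loads cholesterol onto lipoprotein, had 202.1, 243.7 and 393.9 normalized counts in Ctrl and 502.0, 446.5 and 397.5 in NE-treated cells. All NE values were higher, but Ctrl replicate 3 came within a few counts of the lowest. The change on the log2 scale was 0.73 (standard error 0.231, limma adjusted p = 0.0256). It was 1.01 without Ctrl replicate 3 and did not pass without Ctrl replicate 1 (0.53), Ctrl replicate 2 (0.66), NE replicate 1 (0.65) or NE replicate 2 (0.73), nor after GC correction (0.53, limma adjusted p = 0.0882). ABCG1, a second exporter, had 1, 0 and 0 reads in Ctrl and 1, 0 and 1 reads in NE libraries, so that no fold change could be given at this depth. MYLIP, a ubiquitin ligase that limits lipoprotein uptake, had 310.0, 292.4 and 369.4 normalized counts in Ctrl and 326.1, 359.3 and 371.0 in NE-treated cells. The groups overlapped, and the log2 fold change was 0.13 (95% interval -0.19 to 0.44, limma adjusted p = 0.481).

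Levels differed widely between the genes. Per kilobase of exon, SCD was the highest, at 14054 normalized counts in Ctrl and 12098 in NE libraries, followed in Ctrl by FASN at 2129, FDFT1 at 1438, ACLY at 1221, FDPS at 1145 and INSIG1 at 1079. The next in the order, SQLE, had 910.7. ACLY, FDPS and INSIG1 differed in Ctrl by less than the spread between libraries. MVK at 55.8, FADS2 at 43.8, with SC5D beside it, CYP51A1 at 29.7 and ABCA1 at 24.7 were the lowest in Ctrl apart from ABCG1. In NE libraries FASN, at 1090, and ACLY, at 1049, no longer differed beyond their spread.

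**Figure D4:**
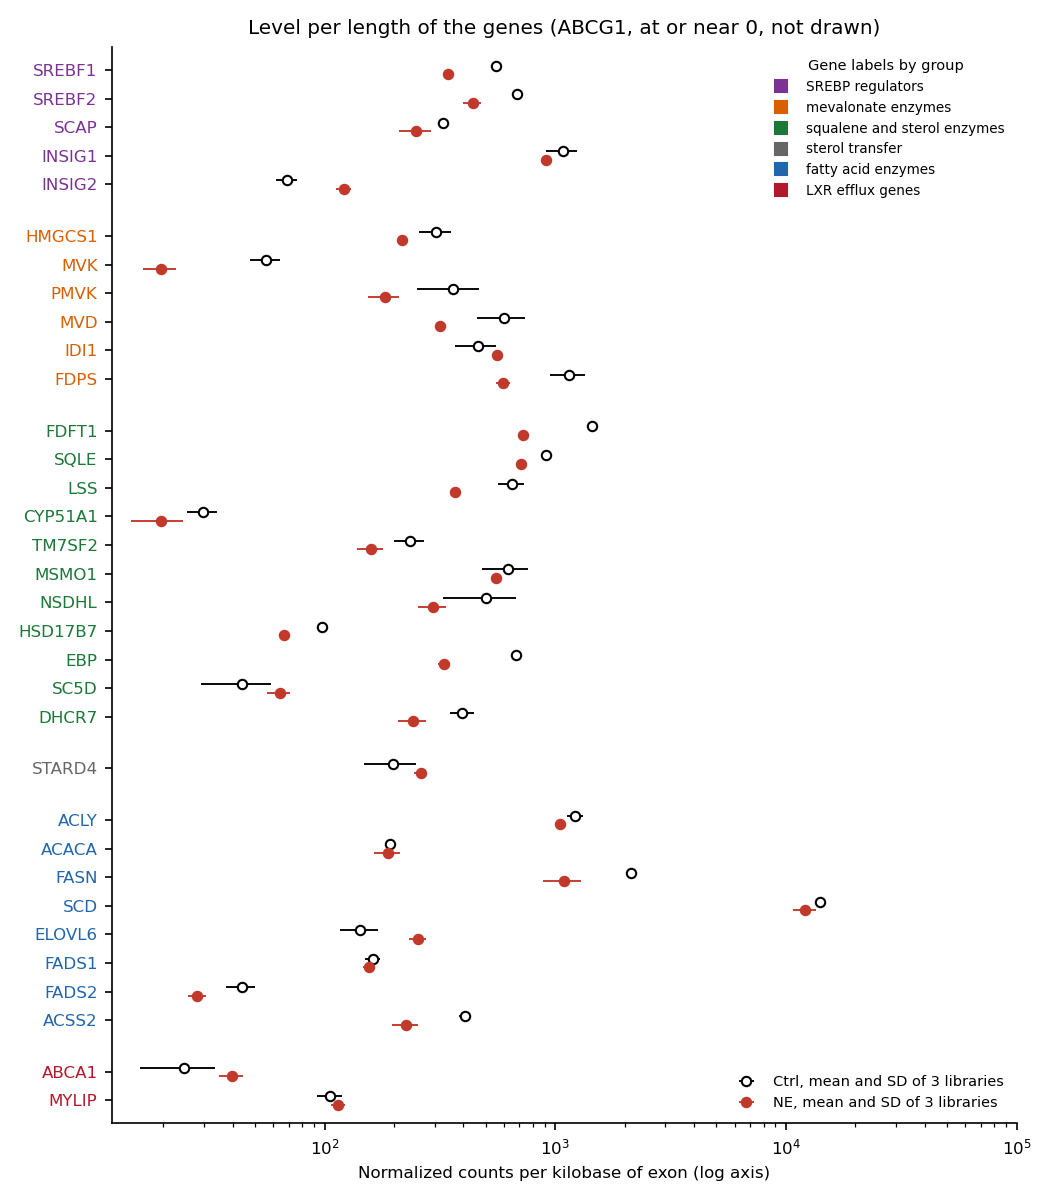
Mean normalized count per kilobase of exon with its SD over 3 libraries on a log axis, Ctrl open and NE filled. SCD lies far above the other genes, and MVK, CYP51A1, FADS2, SC5D and ABCA1 lie lowest in both groups.

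Some exons of these genes also belong to other listed genes, often on the other strand. The overlap covered 37.7% of the exon length of HMGCS1, 18.6% of FDPS, 15.0% of IDI1, 9.08% of SREBF2, 7.88% of LSS and 6.75% of SREBF1. It covered 4.79% of FADS1 and 5.11% of FADS2, and each of these genes was the largest partner of the other. The strand setting of the counting is not given in the sources used here, so reads of a gene and of its overlapping partner cannot be told apart there. Of the genes with a 2-fold or near 2-fold fall, EBP and FASN had no such overlap, and MVK and FDFT1 had 2.5% and 4.27%.

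Promoter windows of 250 bases before to 50 bases after the start were found for 30 of the 34 genes in RefSeq (GRCh38.p14). FDFT1, SQLE, FASN and ABCG1 had no entry. Exact matches were searched on both strands, the windows were not part of the measurement, and a match is a description of letters. The NF-Y box CCAAT was found in 19 of the 30 windows, 63.3%, and in 36.5% of the 10481 windows of tested genes. At least 2 boxes were found in 13 windows, 43.3%, beside 13.6% of the windows of tested genes. Of the downregulated genes, 12 of 16 held a box, and 7 of the remaining 14 did. By group, 8 of 9 squalene and sterol genes and 4 of 6 mevalonate genes held a box, 3 of 7 fatty acid genes and 2 of 5 regulators. In NSDHL 2 of the 5 boxes overlapped. The sterol regulatory element TCACNCCAC was found in 1 window, shown above, and in 1.01% of those of tested genes. The E-box CACGTG occurred in the windows of SCAP, INSIG1, LSS, SC5D and ABCA1, 16.7% of the 30, beside 10.2%. The GC box GGGCGG occurred in 28 windows, 93.3% beside 70.8%. The cAMP response element TGACGTCA occurred in 1 window, 3.33% beside 3.31%, and its core TGACG, which the whole element contains, in 13, 43.3% beside 34.5%. The LXR direct-repeat element was found in 0 of the 30 windows, and also in 0 of the 10481 windows of tested genes.

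**Figure D5:**
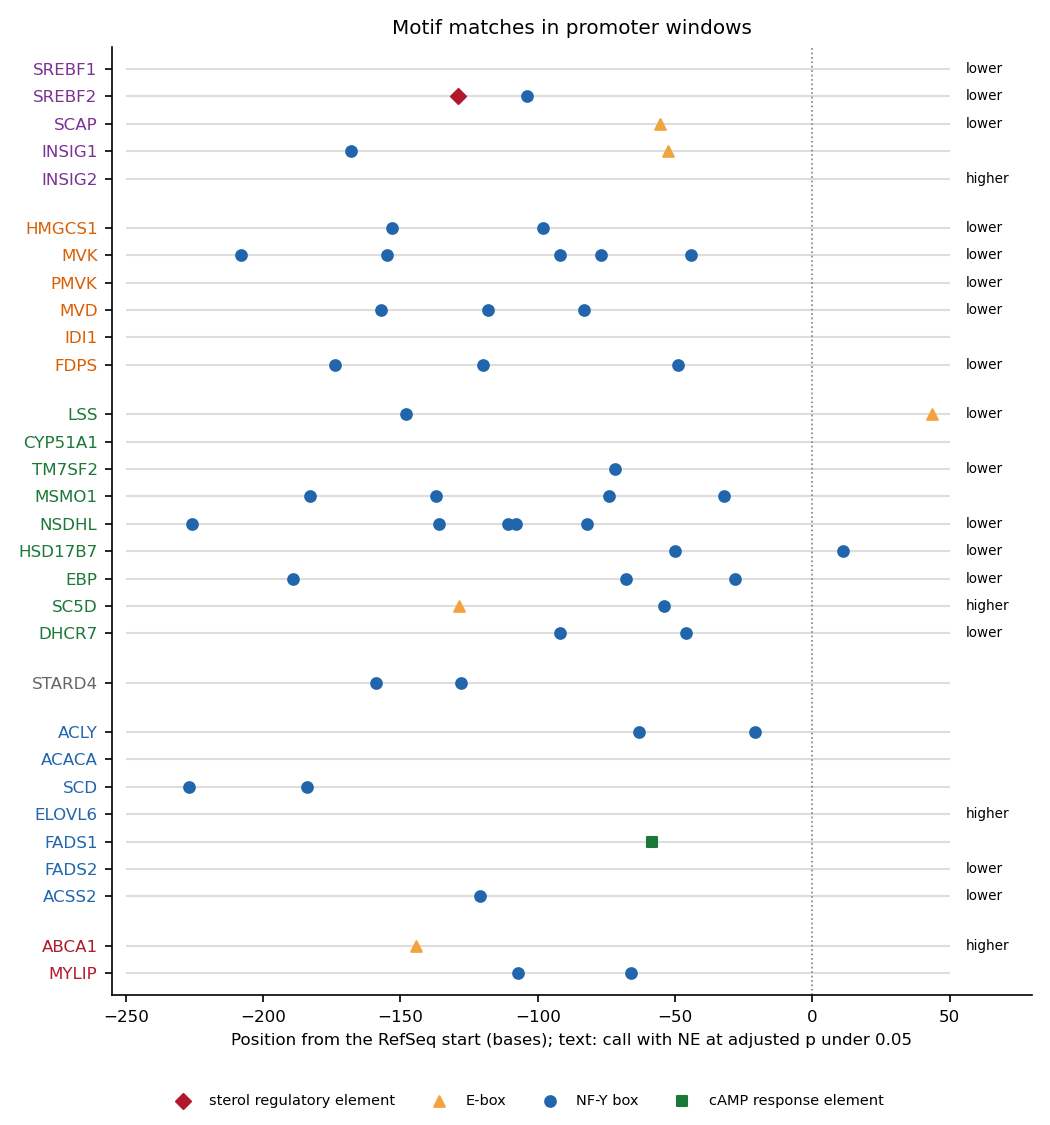
Position of exact motif matches in the 30 promoter windows, in bases from the RefSeq start (0), with the limma call of each gene at an adjusted p under 0.05 at the right. NF-Y boxes (circles) repeat in most mevalonate and sterol genes, and the sterol regulatory element and the cAMP response element each appear once.

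A further 54 genes of the same pathways were listed by name, and 53 of them were tested, since THRSP was under the minimum mean. Of these 53, 16 were higher with NE and 19 lower, 30.2% and 35.8%, beside 24.6% and 25.5% of all tested genes, and their median log2 fold change was 0.059. After GC correction 4 were higher and 12 lower, 7.55% and 22.6%, beside 13.0% and 19.0% of all genes in that fit. Of 9 further sterol and isoprenoid genes, 2 were higher and 4 lower, 22.2% and 44.4%. GGPS1, which makes geranylgeranyl diphosphate, had a log2 fold change of 0.73 (limma adjusted p = 0.00461). After GC correction GGPS1 did not pass (0.38, limma adjusted p = 0.099). Of 10 genes of SREBP processing and sterol-regulated degradation, 3 were higher and 7 did not pass. The share higher was 30%, beside 24.6% of all tested genes, and after GC correction 0 were higher and 0 lower. PAQR3, a Golgi anchor of SCAP, was higher by 0.97 (limma adjusted p = 0.00768) and MBTPS2, a protease that releases SREBPs, by 0.68 (limma adjusted p = 0.0109). Neither passed after GC correction, at 0.26 and 0.052.

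Of 18 further genes of fatty acid synthesis and activation, 7 were higher and 7 lower, 38.9% each. Of all tested genes, 24.6% were higher and 25.5% lower. ELOVL1, an elongase of very long chains, had a log2 fold change of -1.35 (limma adjusted p = 2.89e-05) with 5842, 5869 and 5357 normalized counts in Ctrl and 2208, 2285 and 2179 in NE-treated cells. The fall of ELOVL1 thus ran opposite to the rise of ELOVL6. PNPLA3, a lipase, had a log2 fold change of -1.33 (limma adjusted p = 0.00612) and MID1IP1, which activates acetyl-CoA carboxylase, one of -1.20 (limma adjusted p = 0.000448). All 3 were also lower after GC correction, at -0.82, -0.96 and -0.88.

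Of 6 LXR receptors and targets, 1 was higher and 4 lower, 16.7% and 66.7%, beside 24.6% and 25.5% of all tested genes. SMPDL3A, an LXR target, rose by 1.12 on the log2 scale (limma adjusted p = 0.000489), and RXRA, the partner receptor of LXR, had a log2 fold change of -0.64 (limma adjusted p = 0.00483). After GC correction these were 0.53 and -0.038. Of 10 genes of sterol uptake, storage and transport, 3 were higher and 4 lower, 30% and 40%. NPC2 and STARD3, which handle cholesterol in late endosomes and lysosomes, had log2 fold changes of -0.91 in both cases (limma adjusted p = 0.000646 and 0.0004), and -0.88 and -0.33 after GC correction.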

How the data were processed

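RNA-seq of NCI-H1299 gave 3 Ctrl and 3 NE libraries (10 µM, 48 h), grouped by the sample labels. Group letter and replicate number linked the 6 value columns to the libraries. The authors aligned reads to hg38 with HISAT2 (2.0.5 in the submitters' processing notes) and counted them with featureCounts (1.5.0-p3), with DESeq2 as their test. Although FPKM are described, the deposited signal was a read count per gene divided by the library's size factor (0.955 to 1.09): 100% of the values were whole multiples of 1 read within a tolerance of 0.01. A fold change on log2(value + 1) understates the change of low genes.

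The members and lists of genes were chosen with earlier results of these data known. Limma 3.58.1 (lmFit, eBayes with trend) used log2(value + 1) of the 15013 genes whose mean was 10 or more, with Benjamini-Hochberg adjustment over all of them. Calls needed an adjusted p under 0.05, with or without a log2 fold change of at least 1. With 3 libraries per group an exact permutation test cannot go below 0.1. Values in every library were given for regulators, LXR efflux genes and members with an adjusted p under 0.05 and a log2 fold change of at least 0.7 in size, and for a few others singled out after their values were seen. Genes of the other lists were named at a 2-fold change, or as the 2 largest of a list with fewer than 2 such genes. A gene that meets this rule is not reported here. Alternatives were other pseudocounts, filters and scalings, edgeR 4.0.16 and DESeq2 1.42.0 on recovered reads, a replicate block, each library left out, and natural splines (5 degrees of freedom) on GC content, or GC content and length, removed from each library. GC content and exon length came from GENCODE v44 for 25813 genes, and promoters from RefSeq. Scripts were tested on simulated data. Counting intervals were not needed, and reads without molecular identifiers give counting error only as a lower limit.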

Additional observations from a re-analysis of the deposited data

How the results depend on the processing

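The counts and group medians stayed within 1.5 times or the spread between libraries under pseudocounts of 0.1 and 5, with no filter, at a mean of at least 100, under TMM scaling and by edgeR and DESeq2. Within these counts edgeR lost SC5D, while TMM scaling and edgeR took FDFT1 past the 2-fold criterion and a mean of at least 100 added CYP51A1. Quantile normalization lost SQLE and added CYP51A1 to the genes lower and IDI1 and STARD4 to the genes higher. The GC correction and Ctrl replicate 3 moved the counts and medians most. Of all called genes, 49.1% were higher with NE as reported, 40.7% after GC correction and 38.4% after GC and length correction. The cause of the changes below was not tested.

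The number of genes at least 2-fold lower, 2 as reported, was 4 under GC correction, under GC and length correction, under GC correction with replicate block, and under GC correction without Ctrl replicate 3, which was chosen after seeing the data. It ranged from 2 to 7 with each library left out, and the number at least 2-fold higher from 0 to 1. Among all 14955 genes, 347 to 535 were at least 2-fold lower under these 4 GC settings. With each library left out, 777 to 1512 of all 15013 genes were at least 2-fold lower and 816 to 1609 at least 2-fold higher. The number higher, 4 as reported, was 1 under GC correction and under GC and length correction, 0 under GC correction with replicate block (limma, 2 at an unadjusted p under 0.05), and 2 to 6 with each library left out. The number lower, 19 as reported, was 12 under GC correction with replicate block and 16 to 21 with each library left out. The counts over all genes moved as well. Under GC correction with replicate block, 2156 of all 14955 genes were lower and 1414 higher. With each library left out, 2958 to 4894 of all 15013 genes were lower and 2715 to 4780 higher.

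Same-numbered Ctrl and NE libraries had correlated deviations of -0.163, 0.0799 and -0.151, so that the numbers were not taken as pairs. The replicate block gave 18 genes lower and 2 higher, without NSDHL, SC5D and ABCA1, and 2 at least 2-fold lower. Of all 15013 genes, 3358 were then lower, 3150 higher and 924 at least 2-fold lower.

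Under GC correction, GC and length correction, GC correction with replicate block, and GC correction without Ctrl replicate 3, in that order, the median log2 fold change of the regulators was -0.095, -0.22, -0.095 and 0.028, the last reversed, that of the mevalonate enzymes was -0.46, -0.39, -0.46 and -0.56, and that over all 33 genes was -0.33, -0.33, -0.33 and -0.28. For the squalene and sterol enzymes the last of these gave -0.70. For the fatty acid enzymes it was -0.096 under GC correction with or without the block, -0.098 when Ctrl replicate 3 was also left out, and -0.040 under quantile normalization, which gave -0.44 over all 33 genes. With each library left out the median ranged from -0.51 to -0.28 for the regulators, from -1.09 to -0.78 for the mevalonate enzymes, from -0.73 to -0.53 for the squalene and sterol enzymes, from -0.27 to -0.17 for the fatty acid enzymes, from 0.31 to 0.61 for the LXR efflux genes and from -0.55 to -0.46 over all 33 genes. Of the other pathway genes, 4, 4, 3 and 6 were higher under the 4 GC settings in the same order. Under those without a length term, 12, 9 and 12 were lower. When a library was left out, 9 to 23 were higher and 14 to 21 lower. Under the 4 GC settings, 1414 to 2857 of all 14955 genes were higher and 2156 to 3489 lower.

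The sign of single genes turned as follows. Under GC correction, with or without the block, the log2 fold change was 0.15 for SCAP, -0.081 for IDI1, 0.059 for TM7SF2, -0.10 for SC5D, -0.33 for STARD4, 0.056 for ACLY and 0.26 for FADS1. Under GC and length correction it was 0.076, -0.013, 0.11, -0.17, -0.33, 0.043 and 0.14 for the same genes, and -0.0074 for MBTPS2. Under GC correction without Ctrl replicate 3 it was 0.028 for SREBF1, 0.26 for SCAP, 0.083 for TM7SF2, -0.28 for STARD4, 0.067 for ACLY, 0.29 for FADS1 and 0.048 for RXRA. Under quantile normalization it was 0.0038 for ACLY, 0.085 for ACACA and 0.012 for FADS1. With each library left out it ranged from -0.25 to 0.035 for MSMO1, highest without Ctrl replicate 3, and from -0.14 to 0.040 for ACACA, highest without NE replicate 3.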
